A study of Mus musculus with 4 samples.

Results

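Type VI and type VIII collagens were followed by the mRNAs of 7 genes, *Col6a1*, *Col6a2*, *Col6a3*, *Col6a5*, *Col6a6*, *Col8a1* and *Col8a2*, in sorted Osr1+ cells of the mouse embryonic limb. The 7 genes were taken by name and are all the type VI and type VIII genes among the 23284 genes counted, apart from *Col6a4*, which is given beside them. RNA was sequenced from 2 Osr1 GCE/+ and 2 Osr1 GCE/GCE embryos of the C57BL/6J strain at E13.5, with 1 embryo per sample. GCE is a knock-in at *Osr1* that encodes eGFP and the tamoxifen-inducible Cre recombinase CreERt2, and live GFP-positive cells of whole limbs were sorted, so that cells of both genotypes carried the allele and no wild-type cells were measured. *Osr1* encodes a zinc-finger transcription factor of the Odd-skipped related family, and the study asked how its loss changes the matrix genes of muscle connective tissue (MCT). The counts of a sample summed to 52121596 to 61402140, and values are given as CPM (counts per 1000000 counts of the library after TMM scaling). *Osr1* itself was at 81.9 and 79.1 CPM in GCE/+ cells, against 11.9 and 13.9 CPM in GCE/GCE cells (log2 fold change -2.64, SE 0.11, adjusted p = 5.94e-05 in the quasi-likelihood test of edgeR).

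Type VI collagen forms beaded microfilaments that surround muscle fibres, vessels and chondrocytes and link cells to the interstitial matrix. Its monomer holds an α1 chain, an α2 chain and a longer chain, usually α3, for which α5 or α6 can stand in. Mutations in *COL6A1*, *COL6A2* and *COL6A3* cause muscular dystrophies in humans. Type VIII collagen is a short, network-forming collagen made of α1 and α2 chains, best known from Descemet's membrane of the cornea and from vessel walls, and its closest relative is type X collagen of hypertrophic cartilage.

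The 2 type VIII genes were higher in each GCE/GCE sample than in either GCE/+ sample and passed the test, a Benjamini-Hochberg adjusted p under 0.1 in the quasi-likelihood (QL) test of edgeR. *Col8a1* rose 1.62-fold and *Col8a2* rose 1.29-fold. The 5 type VI genes had lower means in GCE/GCE cells, by 16.6% to 39.2%, and none of them passed. Over all 15645 genes tested, 1.82% passed, with 0.895% higher and 0.927% lower in GCE/GCE cells, against 2 of 7 members. Both GCE/GCE samples were below both GCE/+ samples for 2 of the type VI genes, *Col6a5* and *Col6a6*, as for 19.1% of all genes tested, and above them for both type VIII genes, as for 19.2%. All 7 members had enough counts to be tested. The spread of each gene was estimated from 2 samples per genotype and moderated by that of the other genes tested.

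**Figure D1:**
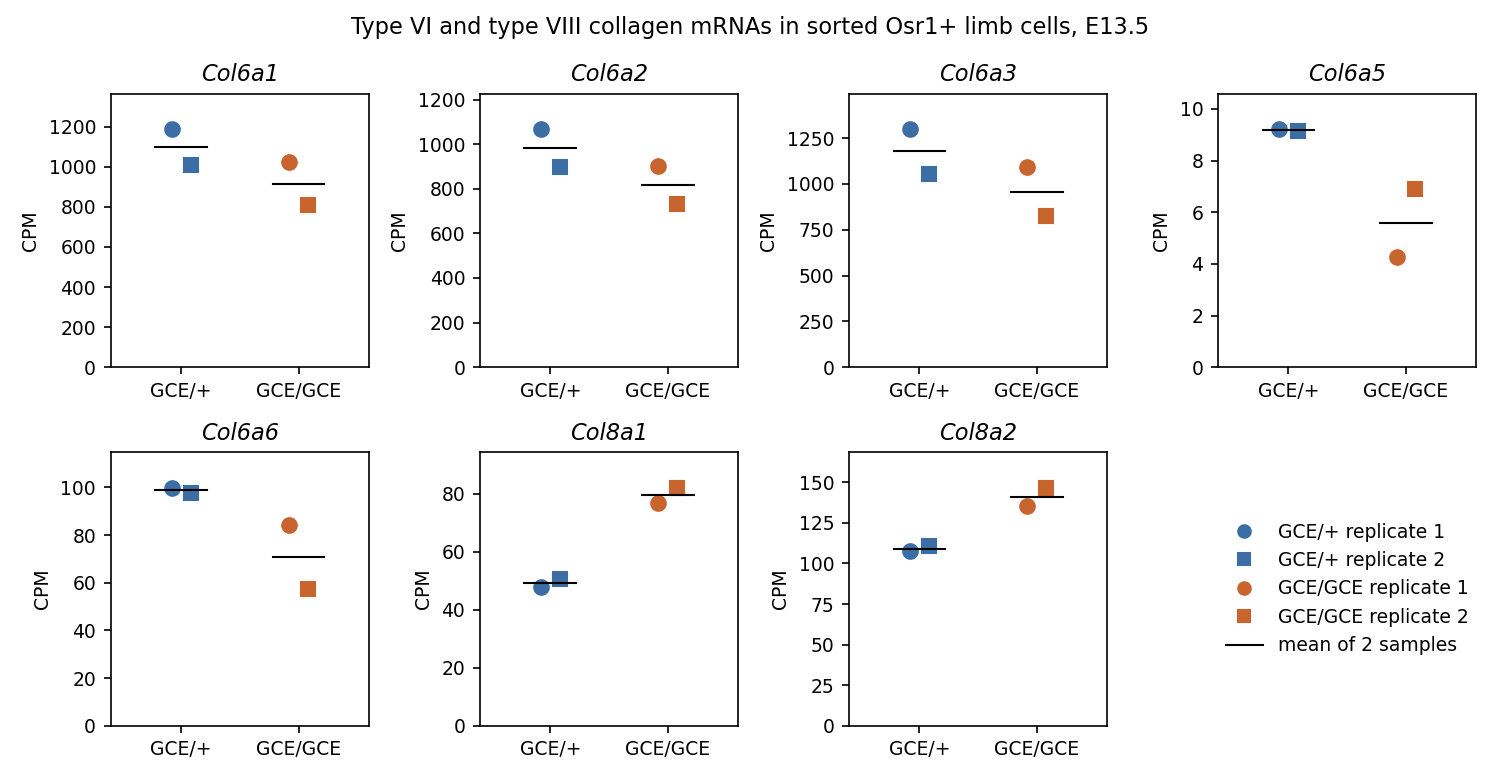
Level of each type VI and type VIII collagen mRNA (CPM, axes from 0) in the 2 GCE/+ samples (blue) and the 2 GCE/GCE samples (orange), with circles for replicate 1, squares for replicate 2 and a line at the mean of the 2 samples. The genotypes overlap for *Col6a1*, *Col6a2* and *Col6a3* and do not overlap for *Col6a5*, *Col6a6*, *Col8a1* and *Col8a2*.

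The genes lie at 5 places of the mouse genome, given here in GRCm38 although the reads were mapped to mm9. *Col6a2* (chromosome 10, from 76595762 to 76623630) and *Col6a1* (chromosome 10, from 76708792 to 76726168) are neighbours on the minus strand, 85.2 kb apart. *Col6a6* (chromosome 9, from 105687809 to 105828160) and *Col6a5* (chromosome 9, from 105856078 to 105960643) are 27.9 kb apart, and *Col6a4* follows after 28.8 kb on the same strand. *Col6a3* is on chromosome 1, from 90765923 to 90843971, *Col8a1* is on chromosome 16, from 57624258 to 57754737, both on the minus strand, and *Col8a2* is on the plus strand of chromosome 4, from 126286793 to 126314330. In the GENCODE annotation the type VI transcripts have 28 to 44 exons, against 4 exons for each type VIII transcript.

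The bases before the start are shown for the 2 genes that passed the test and for *Col6a3*, the member with the most counts in GCE/+ cells. All 7 members matched RefSeq's GRCm38.p6 promoter windows, with 8 starts because *Col6a2* has 2, and the 250 bases upstream of each start are read 5′ to 3′ on the gene's strand. The windows are chr16:57754738-57754987 on the minus strand for *Col8a1*, chr4:126286544-126286793 on the plus strand for *Col8a2* and chr1:90843972-90844221 on the minus strand for *Col6a3*. Capitals mark matches to the GC box GGGCGG, to TGANTCA (AP-1) or to part of the Osr1 word described next.
Col8a1: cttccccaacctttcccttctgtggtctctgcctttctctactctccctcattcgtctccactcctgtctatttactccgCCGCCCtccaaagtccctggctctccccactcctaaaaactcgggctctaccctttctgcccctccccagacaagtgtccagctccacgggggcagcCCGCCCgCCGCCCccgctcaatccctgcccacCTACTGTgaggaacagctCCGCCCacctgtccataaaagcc
Col8a2: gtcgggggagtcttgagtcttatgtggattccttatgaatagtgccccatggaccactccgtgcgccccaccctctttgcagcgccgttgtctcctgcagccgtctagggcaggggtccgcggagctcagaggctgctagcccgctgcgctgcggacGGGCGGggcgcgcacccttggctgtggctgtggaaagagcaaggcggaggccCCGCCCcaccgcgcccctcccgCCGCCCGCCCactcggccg
Col6a3: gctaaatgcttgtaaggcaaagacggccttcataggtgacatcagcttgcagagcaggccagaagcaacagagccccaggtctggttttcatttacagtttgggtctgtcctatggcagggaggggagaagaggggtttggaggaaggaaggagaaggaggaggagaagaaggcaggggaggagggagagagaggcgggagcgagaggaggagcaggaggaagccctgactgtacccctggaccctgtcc

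Odd-skipped related factors are known to bind the word GCTACTGT, which was searched whole and as its first and last 7 letters, GCTACTG and CTACTGT, on both strands. No member held the whole word, which 0.749% of 32851 RefSeq windows of this length held, or GCTACTG, which 3.03% held. CTACTGT was found once, 41 bases upstream of the *Col8a1* start, and 2.43% of all windows held it. The GC box GGGCGG, in capitals with its reverse complement CCGCCC, was found 4 times before *Col8a1* and 4 times before *Col8a2*, where the last 2 matches overlap. *Col6a2*, *Col6a5* and *Col6a6* held it too, *Col6a1* and *Col6a3* did not, and 32.7% of all windows held it. TGANTCA was found in the *Col6a1* window alone among the members, against 6.75% of all windows, and no member held TATAAA, which 12.4% held. The RefSeq windows of *Col6a1* and *Col6a6* and the first window of *Col6a2* reach into the gene as GENCODE annotates it, and the TGANTCA match of *Col6a1* and 3 of the 4 GC box matches of *Col6a2* lie there. A match describes letters in this window only, and the words were chosen with the sequences in view. The paper screened much further upstream and reported that tagged Osr1, expressed in embryonic fibroblasts, bound a consensus site at *Col6a1* and another at *Col6a3*.

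Levels of different genes were compared as CPM per kb of the transcript, since the transcripts range from 4.100 kb for *Col6a1* to 10.106 kb for *Col6a3*. In GCE/+ cells *Col6a1* was the most abundant member, at 290 and 247 CPM per kb in replicates 1 and 2. *Col6a2* followed with 229 and 193 CPM per kb, and *Col6a3* with 129 and 105 CPM per kb. The 3 chains of the common type VI monomer thus stood apart from the rest by level.

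*Col8a2* came next with 24.9 and 25.5 CPM per kb, and then *Col6a6* with 11.4 and 11.1 CPM per kb. *Col8a1* had 9.35 and 9.87 CPM per kb, and *Col6a5* was lowest with 0.992 and 0.986 CPM per kb. No neighbours in this order overlapped between their 2 GCE/+ values. In GCE/GCE cells the order was the same except that *Col8a1*, at 15.0 and 16.1 CPM per kb, stood above *Col6a6*, at 9.60 and 6.53 CPM per kb. Summed per kb, type VI mRNA was 19.3 and 15.7 times type VIII mRNA in GCE/+ replicates 1 and 2, and 12.1 and 8.88 times in GCE/GCE replicates 1 and 2. The 2 GCE/GCE ratios were both below the GCE/+ ratios, a description of sums in which *Col6a1*, *Col6a2* and *Col6a3* make up nearly all of type VI.

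*Col6a1*, the α1 chain, had 1188 and 1011 CPM in GCE/+ replicates 1 and 2 and 1024 and 808 CPM in GCE/GCE replicates 1 and 2. *Col6a2*, the α2 chain, was at 1067 and 897 CPM in GCE/+ cells, against 903 and 731 CPM in GCE/GCE cells. *Col6a3*, the α3 chain, whose C-terminal end is cleaved off as endotrophin, was at 1299 and 1056 CPM in GCE/+ cells, against 1090 and 826 CPM in GCE/GCE cells. For each of these 3 genes GCE/+ replicate 1 was highest, GCE/GCE replicate 2 was lowest, and GCE/GCE replicate 1 lay slightly above GCE/+ replicate 2, so that the genotypes overlapped.

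The log2 fold changes, GCE/GCE over GCE/+, were -0.26 (SE 0.14) for *Col6a1*, -0.26 (SE 0.14) for *Col6a2* and -0.30 (SE 0.16) for *Col6a3*. The adjusted p was 0.633, 0.607 and 0.623 in that order (edgeR QL). The 2 embryos of a genotype differed by about as much as the genotypes did. On the log2 scale replicate 2 was below replicate 1 by 0.23 to 0.30 in GCE/+ cells and by 0.30 to 0.40 in GCE/GCE cells for these chains, against a median absolute difference of 0.138 and 0.098 over the 13469 genes whose mean was 1 CPM or more. Leaving out 1 sample moved the log2 fold change of *Col6a1* between -0.45 and -0.10, that of *Col6a2* between -0.43 and -0.12 and that of *Col6a3* between -0.52 and -0.11, without a call. *Col6a3* reached an adjusted p of 0.0592 in edgeR under 1 of 10 other settings, given with the limits. By other measures, the paper reported lower *Col6a1*, *Col6a2* and *Col6a3* at E13.5 by quantitative RT-PCR on embryos other than those sequenced. It also reported weaker type VI collagen labelling in GCE/GCE than in wild-type limbs. Embryonic fibroblasts overexpressing Osr1 had more *Col6a1* and *Col6a3* mRNA in the paper.

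*Col6a5*, the α5 chain, had 9.21 and 9.16 CPM in GCE/+ replicates 1 and 2 and 4.25 and 6.91 CPM in GCE/GCE replicates 1 and 2. *Col6a6*, the α6 chain, was at 99.9 and 97.6 CPM in GCE/+ cells, against 84.3 and 57.3 CPM in GCE/GCE cells. Both GCE/GCE samples were below both GCE/+ samples for each gene, and the lower GCE/GCE sample was replicate 1 for *Col6a5* and replicate 2 for *Col6a6*.

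The log2 fold change was -0.72 for *Col6a5* (SE 0.22, edgeR QL adjusted p = 0.224) and -0.48 for *Col6a6* (SE 0.16, edgeR QL adjusted p = 0.267). These were the 2 type VI members with an unadjusted p under 0.05, which 4.86% of all genes reached in this direction. In DESeq2 the adjusted p was 0.0675 for *Col6a5* and 0.0666 for *Col6a6*, so that 4 of 7 members passed there, against 3.45% of 14707 genes. The log2 fold change of *Col6a5* was -1.11 without GCE/GCE replicate 2 (adjusted p = 0.00087, edgeR QL fit) and -0.42 without GCE/GCE replicate 1 (adjusted p = 0.551, edgeR QL fit). That of *Col6a6* was -0.79 without GCE/GCE replicate 1 (adjusted p = 2.19e-05, edgeR QL fit) and -0.23 without GCE/GCE replicate 2 (adjusted p = 0.951, edgeR QL fit). Each call thus rested on which GCE/GCE embryo was kept. The GCE/GCE arm then held 1 sample, which was assumed to vary like the GCE/+ samples.

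*Col6a5* and *Col6a6* are close in sequence, and 3.48% of the 50-base words of the *Col6a5* transcript and 3.88% of those of *Col6a6* occurred in another annotated gene, mostly in the other of this pair. A small part of their fragments could thus match both genes, and how these were counted was not tested. No such word was shared by *Col6a1*, *Col6a2*, *Col6a3* or *Col8a2*, and 1 was shared by *Col8a1*. The library kit does not keep the strand, and *Col6a6* overlaps an uncharacterised gene model on the other strand and *Col6a3* overlaps another on its own strand. *Col6a4*, the nearest relative in the same gene cluster, was at 3.42 and 2.35 CPM in GCE/+ cells, against 1.69 and 1.63 CPM in GCE/GCE cells. Its groups did not overlap either, and its log2 fold change was -0.80 (SE 0.24, edgeR QL adjusted p = 0.209).

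*Col8a1*, the α1 chain of type VIII, had 47.7 and 50.4 CPM in GCE/+ replicates 1 and 2 and 76.8 and 82.0 CPM in GCE/GCE replicates 1 and 2. *Col8a2*, the α2 chain, was at 108 and 111 CPM in GCE/+ cells, against 135 and 147 CPM in GCE/GCE cells. Both GCE/GCE samples were above both GCE/+ samples for each gene, and the embryos of a genotype lay close together. Replicate 2 differed from replicate 1 by 0.08 and 0.09 on the log2 scale for *Col8a1* in GCE/+ and GCE/GCE cells, and by 0.04 and 0.12 for *Col8a2*.

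The log2 fold change of *Col8a1* was 0.69 (SE 0.09, edgeR QL adjusted p = 0.0203), and by its p it ranked 22 among all genes tested. It passed under all 10 other settings, with an adjusted p from 1.72e-07 in DESeq2 to 0.0617 in edgeR without a filter, and without each of the 4 samples in turn. The log2 fold change of *Col8a2* was 0.37 (SE 0.08, edgeR QL adjusted p = 0.0988), close to the threshold. It lost the call under 6 of 10 other settings and had an adjusted p of 0.0188 in DESeq2. Without GCE/+ replicate 1 or GCE/GCE replicate 2 its adjusted p was 0.185 and 0.481 in edgeR, with log2 fold changes of 0.34 and 0.31. *Col10a1*, the closest relative of type VIII, had 0.12 to 0.40 CPM in the 4 samples, with overlapping groups and a log2 fold change of 0.20 (SE 0.62).

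**Figure D2:**
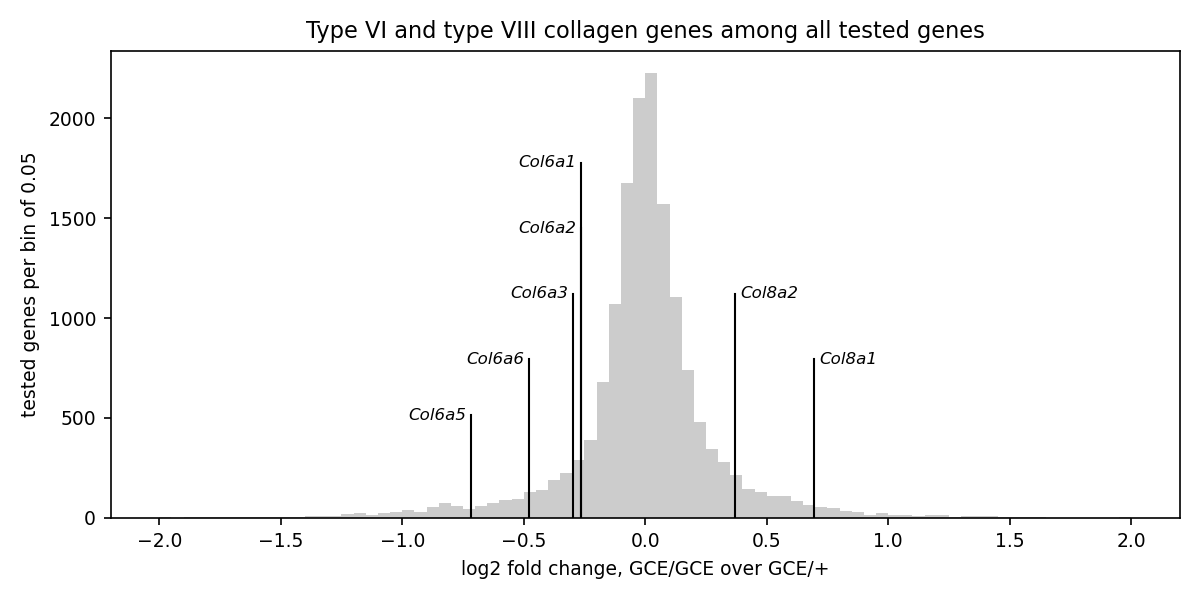
Number of tested genes per bin of 0.05 in log2 fold change, GCE/GCE over GCE/+ (grey), with a black line at the value of each type VI and type VIII collagen gene (line heights are for legibility only), leaving out 27 genes beyond a log2 fold change of 2 in either direction. The 5 type VI genes lie between -0.72 and -0.26, *Col8a2* at 0.37 and *Col8a1* at 0.69.

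The place of the members among all tested genes is shown in the plot of log2 fold changes over all genes. A lower log2 fold change than that of *Col6a5* was found for 2.97% of genes, and than that of *Col6a6* for 5.45%. For *Col6a3*, *Col6a2* and *Col6a1* these shares were 9.56%, 10.7% and 10.8%, and for *Col8a2* and *Col8a1* they were 92.9% and 97.8%. The median over all tested genes was 0.00 on this scale. Of the 36 other collagen chain genes tested, 4 passed in edgeR, all higher in GCE/GCE cells, namely *Col9a1*, *Col9a2*, *Col11a1* and *Col25a1*, which are named after their values were seen. *Col9a1* did not pass in DESeq2 (adjusted p = 0.29).

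**Figure D3:**
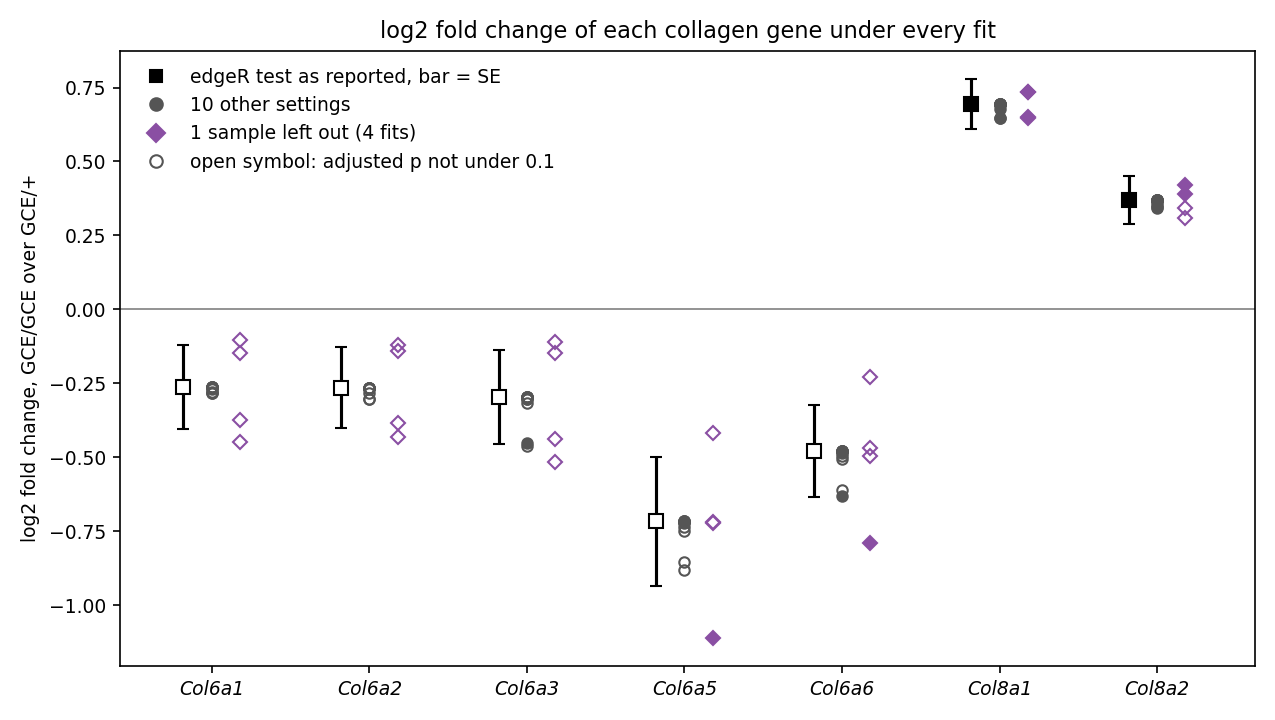
Log2 fold change, GCE/GCE over GCE/+, of each collagen gene in the edgeR test as reported (black squares, bars show the SE), under 10 other settings (grey circles) and with 1 sample left out (purple diamonds), with filled symbols for an adjusted p under 0.1. All values of the 5 type VI genes are below 0 and all values of *Col8a1* and *Col8a2* are above 0, and *Col8a1* alone is filled throughout.

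The plot of log2 fold changes by setting shows that direction depended on no setting tried, whereas the call did for every member except *Col6a1*, *Col6a2* and *Col8a1*. *Col6a1* and *Col6a2* passed under none of the 10 other settings, with an adjusted p from 0.129 to 0.665 for *Col6a1* and from 0.109 to 0.639 for *Col6a2* across edgeR and DESeq2.

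Ratios between chains ask whether the makeup of a collagen changed, and they do not depend on library size. A trend with transcript length that differs between samples still enters them where the chains differ in length. Over the genes tested, the Spearman correlation of log2 fold change with transcript length was 0.251. With 2 samples per genotype the smallest p of an exact two-sided permutation test is 0.333, so none of the 6 ratios compared could pass, and each had an adjusted p of 1 over the 6 in this exact test. Per kb, *Col6a2* was 0.791 and 0.781 of *Col6a1* in GCE/+ replicates 1 and 2 and 0.777 and 0.797 in GCE/GCE replicates 1 and 2. *Col6a3* was 0.444 and 0.424 of *Col6a1* in GCE/+ cells, against 0.432 and 0.415 in GCE/GCE cells. The genotypes overlapped in both ratios, and the mean log2 ratio differed by 0.00 and by -0.04, while each chain's own level differed by -0.26 to -0.30. With transcript length offsets in edgeR the log2 fold changes were -0.28 for *Col6a1*, -0.30 for *Col6a2* and -0.46 for *Col6a3*. The ratios given here carry no such offset.

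Among the members, the chains that can take the α3 position were unequal in amount, with *Col6a4* left out. *Col6a3* made up 92.3% and 90.8% of the summed counts of *Col6a3*, *Col6a5* and *Col6a6* in GCE/+ replicates 1 and 2 and 92.5% and 92.8% in GCE/GCE replicates 1 and 2. *Col6a6* made up 7.09% (95% Wilson interval 6.92% to 7.27%) and 8.39% (8.17% to 8.61%) in GCE/+ cells and 7.15% (6.96% to 7.35%) and 6.44% (6.23% to 6.65%) in GCE/GCE cells. *Col6a5* made up 0.654% (0.603% to 0.711%) and 0.788% (0.720% to 0.861%) in GCE/+ cells and 0.361% (0.319% to 0.409%) and 0.776% (0.706% to 0.853%) in GCE/GCE cells.

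These intervals cover counting error only. GCE/GCE replicate 1 stood below the other 3 samples for *Col6a5*, while GCE/GCE replicate 2 lay within the GCE/+ range. *Col6a6* per kb was 0.0885 and 0.106 of *Col6a3* in GCE/+ cells, against 0.0890 and 0.0798 in GCE/GCE cells, which overlapped. The counts of *Col6a6* were 10.8 and 10.6 times those of *Col6a5* in GCE/+ cells and 19.8 and 8.30 times in GCE/GCE cells, where the 2 embryos fell on either side of the GCE/+ values.

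In type VIII, *Col8a2* per kb was 2.66 and 2.59 times *Col8a1* in GCE/+ replicates 1 and 2 and 2.08 and 2.11 times in GCE/GCE replicates 1 and 2. Without correction for length, *Col8a1* made up 30.7% (95% Wilson interval 29.8% to 31.7%) and 31.3% (30.3% to 32.3%) of type VIII counts in GCE/+ cells and 36.2% (35.4% to 37.1%) and 35.9% (35.1% to 36.7%) in GCE/GCE cells. This was the only ratio of the 6 in which the genotypes did not overlap. The mean log2 ratio was lower by 0.33 in GCE/GCE cells, whereas the embryos of a genotype differed by 0.04 and 0.02, with an exact permutation p of 0.333, the smallest possible here. Without each sample in turn the difference was -0.35 to -0.31.

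**Figure D4:**
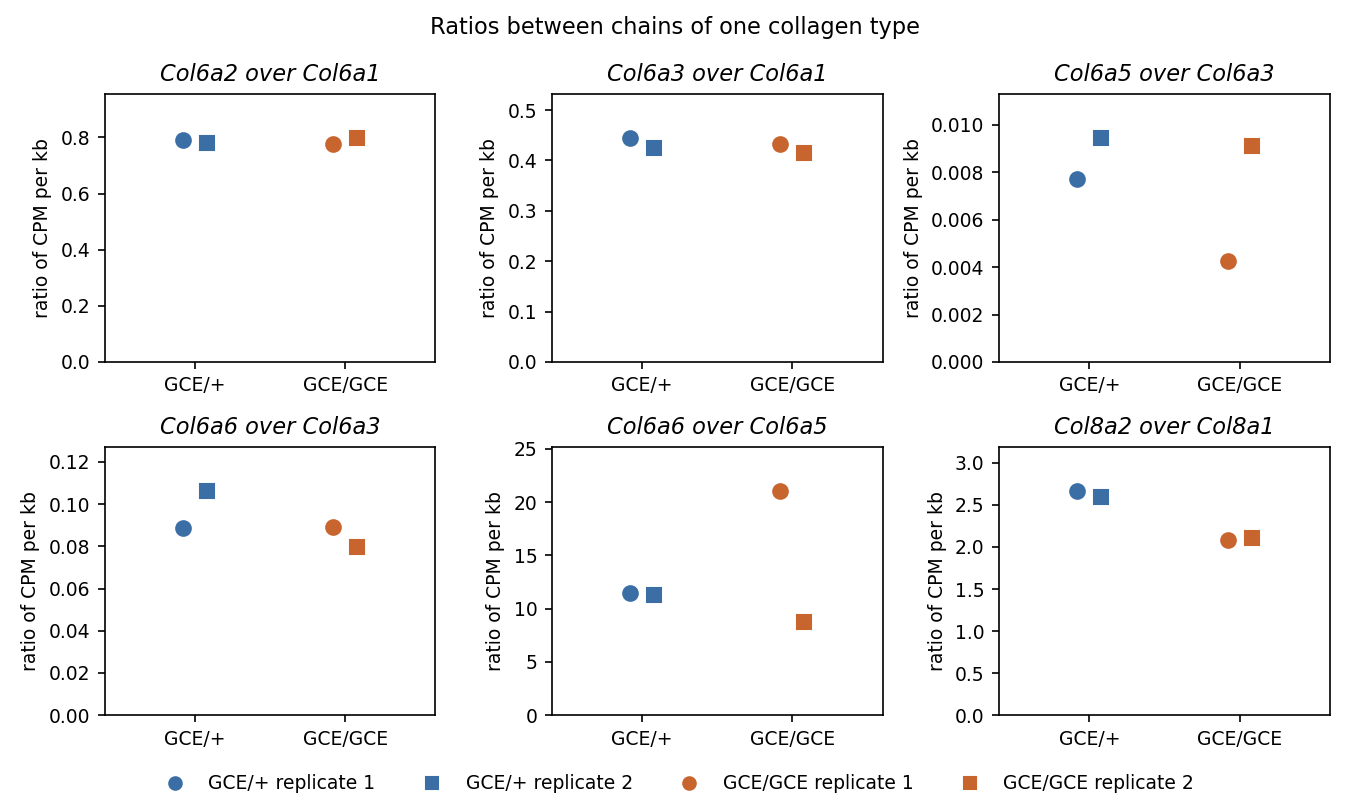
Ratio of the CPM per kb of 2 chains of one collagen type (axes from 0) in each GCE/+ sample (blue) and GCE/GCE sample (orange), with circles for replicate 1 and squares for replicate 2. *Col8a2* over *Col8a1* is 2.59 and above in GCE/+ cells, against 2.11 and below in GCE/GCE cells, and the genotypes overlap in the other 5 ratios.

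By the shape of their 4 values, *Col6a1*, *Col6a2* and *Col6a3* were the most alike of the members. The root mean square difference of log2 CPM, after each gene was centred on its mean over the 4 samples, was 0.015 between *Col6a1* and *Col6a2*, 0.036 between *Col6a1* and *Col6a3* and 0.042 between *Col6a2* and *Col6a3*. It was 0.164 between *Col8a1* and *Col8a2* and 0.462 between *Col6a5* and *Col6a6*, which differ in which GCE/GCE sample is lower. Among 13468 genes, those nearest to the mean of *Col6a1*, *Col6a2* and *Col6a3* included *Cish*, *Papln*, *Lgi4* and *Hspb8*, at 0.015 to 0.021, and of these only *Cish*, an inhibitor of cytokine signalling, and *Hspb8*, a small heat shock protein, had more than 10 CPM. Nearest to *Col6a5* were *Ephx3*, *Epor*, the erythropoietin receptor, and *Ccl7*, a chemokine, at 0.109 to 0.136.

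*Sp110*, *Acp5* and *Nfam1* were nearest to *Col6a6*, at 0.018 to 0.052, of which *Acp5* encodes the tartrate-resistant acid phosphatase of osteoclasts and macrophages. Nearest to *Col8a1* were *Rgs8*, *Ppargc1a*, a coactivator of mitochondrial genes, and *Casq2*, a calsequestrin, at 0.018 to 0.025, and nearest to *Col8a2* were *Arhgef26*, *Scrn1* and *Erg*, an ETS transcription factor, at 0.014 to 0.019. With 4 samples such likeness is a description.

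Genes that act with these collagens were counted from 4 lists. Of 9 receptors, 1 passed and was higher in GCE/GCE cells. This was *Itga11*, an integrin subunit that binds fibrillar collagens, with 27.8 and 28.9 CPM in GCE/+ cells, against 40.7 and 37.4 CPM in GCE/GCE cells, and a log2 fold change of 0.46 (SE 0.10, edgeR QL adjusted p = 0.0781). The other 8 receptors, among them the integrin subunits and the NG2 proteoglycan (*Cspg4*) known to bind type VI collagen, did not pass in edgeR, and the median of the list was 0.20. At an unadjusted p under 0.05 in edgeR, 4 of the 9 were higher in GCE/GCE cells, including *Itga11*, and none was lower.

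Of 13 matrix molecules that bind type VI collagen, 2 passed in edgeR, both higher in GCE/GCE cells, and the median of the list was 0.02. *Fmod*, a small leucine-rich proteoglycan of tendon, was at 52.6 and 43.6 CPM in GCE/+ cells, against 88.5 and 77.7 CPM in GCE/GCE cells (log2 fold change 0.79, SE 0.11, edgeR QL adjusted p = 0.0300). *Matn4*, a matrilin, was at 39.3 and 55.2 CPM in GCE/+ cells, against 75.1 and 90.8 CPM in GCE/GCE cells (log2 fold change 0.81, SE 0.16, edgeR QL adjusted p = 0.0679). Of the 13, 7 had a log2 fold change above 0 and 6 had one below 0. At an unadjusted p under 0.05 in edgeR, 5 of the 13 were higher in GCE/GCE cells, including *Fmod* and *Matn4*, and 2 were lower. The 2 lower were the small leucine-rich proteoglycans *Dcn* (log2 fold change -0.68, edgeR QL adjusted p = 0.131) and *Lum* (-0.34, edgeR QL adjusted p = 0.233). Each was lower in both GCE/GCE samples, and both passed in DESeq2 with an adjusted p of 0.00106 and 0.0662.

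Of 18 tested genes for the folding, modification and export of collagens, 1 passed, and the median of the list was -0.10. *P4ha3*, a catalytic subunit of prolyl 4-hydroxylase, was at 37.5 and 27.0 CPM in GCE/+ cells, against 61.2 and 47.8 CPM in GCE/GCE cells (log2 fold change 0.76, SE 0.17, edgeR QL adjusted p = 0.0988). At an unadjusted p under 0.05 in edgeR, 2 of the 18 were higher in GCE/GCE cells, *P4ha3* and *Plod2*, and 1 was lower. *Plod2* (log2 fold change 0.34, edgeR QL adjusted p = 0.111) passed in DESeq2 with an adjusted p of 0.0292. *Mia3*, an export factor, was listed at 0 in all 4 samples. Whether its mRNA was absent or missed by the counting was not tested. Of 7 proteases none passed in edgeR, and none had an unadjusted p under 0.05 there or an adjusted p under 0.1 in DESeq2. The lowest p were those of *Tll1* (0.231, log2 fold change 0.23, edgeR) and of the membrane-type protease *Mmp14* (0.385, log2 fold change 0.08, edgeR).

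The label of limb mesenchyme was checked with 10 markers, which were all detected in every sample and summed to 21110 to 23330 CPM in GCE/+ cells and 18070 to 20710 CPM in GCE/GCE cells. None of the 10 passed in edgeR, and 9 of them had a log2 fold change below 0. The 2 with the lowest p were *Tcf7l2*, which encodes the MCT transcription factor TCF4 (log2 fold change -0.30, edgeR QL adjusted p = 0.174), and *Col3a1*, a fibrillar collagen (-0.33, edgeR QL adjusted p = 0.684), and both passed in DESeq2 with an adjusted p of 0.0992 and 0.0519. The sum of the 10 fell in the same order of samples as *Col6a1*, *Col6a2* and *Col6a3* except that GCE/+ replicate 2 was above GCE/GCE replicate 1. Most of this sum was fibrillar collagen mRNA, with *Col1a1*, *Col1a2* and *Col3a1* at 3680, 5420 and 9550 CPM in GCE/+ replicate 1. Among the rest, *Pdgfra*, *Prrx1*, *Twist1*, *Vim*, *Dpt* and *Postn* overlapped between the genotypes, with log2 fold changes from -0.18 to 0.05. *Tcf7l2* was lower in both GCE/GCE samples. In bulk RNA, fewer cells of a type and less RNA per cell cannot be told apart.

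Markers of other cells moved with genotype as well. Of 10 macrophage markers 8 passed in edgeR, all lower in GCE/GCE cells, among them *Mrc1*, *C1qa*, *C1qb* and *C1qc* with log2 fold changes from -1.17 to -0.82. Of these 8, *Csf1r* alone did not pass in DESeq2, with an adjusted p of 0.265 there and 0.0959 in edgeR. The other 2 markers of the list passed in DESeq2 only. The list summed to 323 and 332 CPM in GCE/+ replicates 1 and 2 and to 205 and 142 CPM in GCE/GCE replicates 1 and 2, with no marker at 0. *Col6a6* had the same order of GCE/GCE samples as this sum and *Col6a5* the opposite order, and the part of macrophages in their levels was not tested.

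Of 10 cartilage markers 3 passed in edgeR, *Sox9*, *Col9a1* and *Col9a2*, all higher in GCE/GCE cells, and 9 had an unadjusted p under 0.05 there. *Col9a1* had an adjusted p of 0.0988 in edgeR and did not pass in DESeq2 (adjusted p = 0.29). The list summed to 706 and 1070 CPM in GCE/+ replicates 1 and 2 and to 1472 and 1616 CPM in GCE/GCE replicates 1 and 2, with none at 0. Of 6 tendon markers 3 were higher, *Mkx*, *Tnmd* and *Fmod*, and *Kera* was lower. *Scx* was higher in both GCE/GCE samples (log2 fold change 0.68, adjusted p 0.131 in edgeR QL and 0.0184 in DESeq2). The tendon sum ranged from 1507 to 1926 CPM in GCE/+ cells and from 1535 to 2104 CPM in GCE/GCE cells. Most of it was *Egr1*, at 1710 and 1320 CPM in GCE/+ replicates 1 and 2 and 1840 and 1270 CPM in GCE/GCE replicates 1 and 2. The sum thus says little about the other tendon markers. *Col8a1* and *Col8a2* followed the order of the cartilage sum over the 4 samples, with a smaller spread between the GCE/+ embryos. The part of cartilage or tendon cells in their levels was not tested.

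No marker passed among 6 of endothelium, 6 of myogenic cells, 6 of smooth muscle and pericytes, 4 of Schwann cells and neural crest, 4 of epidermis and 3 tested of erythroid cells (edgeR). At an unadjusted p under 0.05, 3 of endothelium and 1 of epidermis were lower in edgeR. The lowest p of endothelium were those of *Cldn5* (log2 fold change -0.82, edgeR QL adjusted p = 0.131) and *Cdh5* (-0.53, edgeR QL adjusted p = 0.275), both of endothelial junctions. The endothelial markers summed to 104 and 84.1 CPM in GCE/+ replicates 1 and 2 and to 85.8 and 72.7 CPM in GCE/GCE replicates 1 and 2, in the order of *Col6a1*, *Col6a2* and *Col6a3*. The part of vessel cells in the type VI and type VIII levels was not tested.

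**Figure D5:**
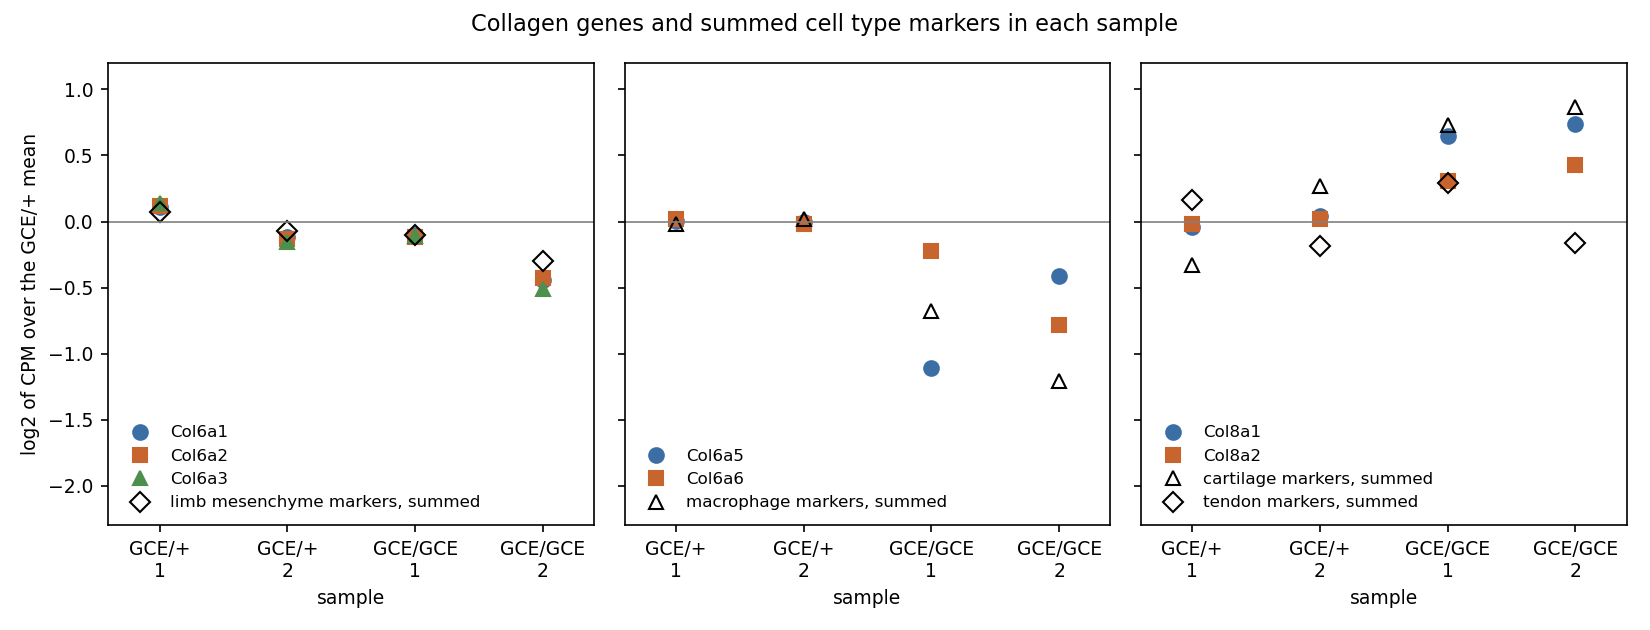
Log2 of the CPM in each sample over the mean of the 2 GCE/+ samples, for *Col6a1*, *Col6a2* and *Col6a3* (left), *Col6a5* and *Col6a6* (middle) and *Col8a1* and *Col8a2* (right), with the summed CPM of marker lists as open symbols. Most of the tendon sum is *Egr1*, and most of the limb mesenchyme sum is *Col1a1*, *Col1a2* and *Col3a1*. In GCE/GCE replicates 1 and 2 the macrophage sum lies at -0.68 and -1.21, *Col6a6* at -0.23 and -0.78 and *Col6a5* at -1.11 and -0.41, while the cartilage sum lies at 0.73 and 0.86 and *Col8a1* at 0.65 and 0.74.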

How the data were processed

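RNA-seq libraries were made with a kit that does not keep the strand. The authors aligned read pairs of 50 bp to the mm9 genome using TopHat2, counted fragments per gene symbol with HTSeq in its intersection-strict mode and deposited these raw counts, without normalization. Samples were grouped by the genotype in their labels. Counts were filtered with filterByExpr, which left 15645 genes, scaled by TMM and fitted with the quasi-likelihood model of edgeR (edgeR 4.0.16, R 4.3.3, two-sided) with Benjamini-Hochberg adjustment over all genes tested and a threshold of 0.1. DESeq2 1.42.0, named in the authors' methods, was an alternative, beside other normalizations, filters and fits, the replicate number as a block, offsets for a trend on transcript length and leaving out each sample. The legacy quasi-likelihood fit was added after seeing the data. Depth was 52121596 to 61402140 counts per sample, and 3 counts amounted to at most 0.0576 CPM.

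CPM per kb used the longest RefSeq-matched transcript of GENCODE M21 (GRCm38). Chain ratios were tested by exact permutation (scipy 1.17.1). The procedure was also run on counts simulated from the means and spreads of its own fit. Such a run cannot show how well that fit describes these data. The members, the gene lists and the marker lists (limb mesenchyme, cartilage, tendon, macrophage, endothelium, myogenic cells, smooth muscle and pericytes, Schwann cells and neural crest, epidermis, erythroid cells) were chosen with earlier results of these data known. Genes named are the members, *Osr1*, *Col6a4*, *Col10a1*, the 4 or fewer genes with the lowest p among those past the threshold in each of the 4 lists of collagen partners, or the 2 with the lowest p where none passed, and the genes nearest in pattern, of which 1 is not reported here. Marker genes were named likewise, except in lists given by counts only. *Cspg4*, *Dcn*, *Lum*, *Plod2*, *Csf1r*, *Col11a1*, *Col25a1*, *Egr1* and *Scx* were named after their values were seen. So were the limb mesenchyme markers other than *Tcf7l2* and *Col3a1*. Promoter sequences are from RefSeq (GRCm38.p6). The p-values rest on the spread between 2 embryos per genotype, which edgeR moderated by the trend over all genes tested. The median prior was 6.38 degrees of freedom, against 2 residual degrees of freedom.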

Additional observations from a re-analysis of the deposited data

How the results depend on the processing

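No member changed direction under any setting. The number of genes past the threshold, 285, was 508 in DESeq2 and 127 without a filter, and the number of members past it, 2, was 4 in DESeq2 and with transcript length offsets and a replicate block, and 1 with RLE or upper quartile normalization, no filter, a robust or a legacy fit, or a replicate block. With length offsets and a replicate block *Col6a3* (log2 fold change -0.45) and *Col6a6* (-0.63) passed, and in DESeq2 *Col6a5* (-0.72) and *Col6a6* (-0.48) passed. *Col8a2* lost the call at 0.37 with RLE, 0.35 with upper quartile, 0.36 with no filter, 0.37 with the robust and the legacy fit and 0.37 with the replicate block (adjusted p 0.101 to 0.181 in edgeR). Over 9764 genes, samples with the same number deviated from their genotype's mean with a correlation of 0.00246, and under the replicate block 290 genes passed. The labels do not say whether samples with the same number shared a litter or a batch, and this correlation cannot settle it for single genes. Between samples of the same number, 1 and 2, the log2 difference was -0.21 and -0.32 for *Col6a1*, -0.24 and -0.29 for *Col6a2* and -0.25 and -0.35 for *Col6a3*.

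Leaving out 1 sample, which leaves an arm with 1 sample assumed to vary like the others, gave 199 to 961 genes (961 without GCE/+ replicate 2, 748 without GCE/GCE replicate 1) and 1 to 3 members, and log2 fold changes of -0.45 to -0.10 for *Col6a1*, -0.43 to -0.12 for *Col6a2*, -0.52 to -0.11 for *Col6a3*, -1.11 to -0.42 for *Col6a5*, -0.79 to -0.23 for *Col6a6*, 0.65 to 0.73 for *Col8a1* and 0.31 to 0.42 for *Col8a2*. The log2 ratio of *Col6a2* to *Col6a1* then differed by -0.0178 to 0.0192, that of *Col6a5* to *Col6a3* by -1.01 to 0.0927 and that of *Col6a6* to *Col6a5* by -0.37 to 0.88, and the last pair changed sign without GCE/GCE replicate 1. By CPM in place of CPM per kb, *Col6a3* ranked 1, *Col6a1* 2 and *Col6a2* 3 among the members. The causes were not tested.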
